A study of Mus musculus with 4 samples.

Results

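The cell cycle and proliferation genes are 39 genes that were chosen by symbol, and all 39 were found in both tables that were used, of 21312 genes in the proximal tubule table and 24468 genes in the cluster table. By role they fall into 17 mitosis genes, 13 DNA replication genes and 9 genes of G1/S control. The tissue was kidney cortex with outer medulla of male C57BL/6 mice, from which single nuclei were isolated and RNA was counted as unique molecular identifiers (UMIs, 1 tag per captured RNA molecule) by droplet 3' sequencing. The group Cis9w had received 4 weekly injections of 8 mg/kg cisplatin, a platinum chemotherapy drug that crosslinks DNA and injures the proximal tubule, a schedule the labels call RLDC, and kidneys were taken at week 9 counted from the first injection. The group CT9w was untreated, and the labels give no age for either group. Each group had 2 samples. Both tables give values pooled over nuclei with no column for a single sample, so the spread between animals is unknown and no test across samples was possible.

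A dividing cell passes from growth (G1) through DNA synthesis (S) and a second gap (G2) into mitosis. D-type cyclins with CDK4 or CDK6 phosphorylate the retinoblastoma protein and release E2F factors, which switch on replication genes such as the MCM helicase subunits. Genes of G2 and mitosis, among them Mki67, Top2a and Cdk1, are induced later through the MuvB complex with B-MYB and FOXM1. In the adult kidney most tubule cells are out of the cycle, and proximal tubule cells that survive injury can re-enter it to repair the epithelium.

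Most listed promoters of the mitosis members share a short string of letters, and the sequences of the members on which the comparisons turn are shown first. Promoters were taken from RefSeq (GRCm38.p6), which listed 32 of the 39 members, as 250 bases before to 50 bases after the start. The cell cycle homology region (CHR), which the MuvB complex binds, was searched as TTTGAA or TTCGAA, the CCAAT box as CCAAT, and E2F elements as TTTCCCGC, TTTGGCGC or TTTCGCGC, each on both strands, and none of these strings contains another. A CHR string was present in 10 of 14 mitosis promoters, in 1 of 12 replication promoters (Mcm2) and in 0 of 6 G1/S control promoters, against 19.4% of 27025 mouse promoters. A CCAAT string, with or without a CHR string, was not particular to mitosis members. It was present in 12 of 14 mitosis, 11 of 12 replication and 2 of 6 G1/S control promoters, against 37.9% of all promoters. A CHR string together with a CCAAT string was present in 9 of the 14 mitosis promoters, against 7.7% of all promoters. An E2F string was present in 1 mitosis promoter (Cdk1), 5 of 12 replication promoters and 2 of 6 G1/S control promoters, against 1.91% of all promoters. A match is a description of letters and not a binding site.

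For 8 members, the 200 bases that run from 150 before to 50 after the start are printed 5' to 3' on the gene's own strand, with CHR, CCAAT and E2F strings in capitals on either strand. The first 5, Top2a, Mki67, Kif11, Knl1 and Cdk1, are mitosis members with a CHR string and a higher level in the Cis9w than in the CT9w proximal tubule pool. Diaph3, also higher in Cis9w, and Cenpe, lower in Cis9w, are mitosis members without a CHR string. Mcm6 is a replication member with E2F strings. Whether a CHR string goes with a difference between the pools was not tested. Their regions are chr11:99024140-99024339 (minus strand), chr7:135716330-135716529 (minus strand), chr19:37376232-37376431 (plus strand), chr2:119046969-119047168 (plus strand), chr10:69352863-69353062 (minus strand), chr14:87141175-87141374 (minus strand), chr3:135212413-135212612 (plus strand) and chr1:128359656-128359855 (minus strand). Counted from the start, the first base of a CHR string lies at -140, -120 and -23 in Top2a, at -116 and -98 in Mki67, at -19 in Kif11, at 32 in Knl1 and at -71 and -15 in Cdk1.
Top2a: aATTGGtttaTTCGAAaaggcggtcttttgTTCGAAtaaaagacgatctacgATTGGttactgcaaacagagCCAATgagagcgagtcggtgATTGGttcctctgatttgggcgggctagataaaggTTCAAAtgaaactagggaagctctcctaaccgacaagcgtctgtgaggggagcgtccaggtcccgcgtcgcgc
Mki67: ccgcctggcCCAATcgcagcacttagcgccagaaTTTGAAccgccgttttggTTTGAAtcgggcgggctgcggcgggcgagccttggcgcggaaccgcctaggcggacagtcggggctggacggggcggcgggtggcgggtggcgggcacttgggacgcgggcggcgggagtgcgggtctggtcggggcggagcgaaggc
Kif11: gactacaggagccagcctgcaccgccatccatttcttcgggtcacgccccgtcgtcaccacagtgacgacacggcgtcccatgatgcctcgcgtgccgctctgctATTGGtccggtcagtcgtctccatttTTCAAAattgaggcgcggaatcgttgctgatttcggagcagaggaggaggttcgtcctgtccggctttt
Knl1: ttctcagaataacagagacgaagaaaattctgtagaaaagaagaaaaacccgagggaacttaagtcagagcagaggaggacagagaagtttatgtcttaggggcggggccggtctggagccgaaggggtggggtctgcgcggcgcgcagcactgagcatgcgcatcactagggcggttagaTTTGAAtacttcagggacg
Cdk1: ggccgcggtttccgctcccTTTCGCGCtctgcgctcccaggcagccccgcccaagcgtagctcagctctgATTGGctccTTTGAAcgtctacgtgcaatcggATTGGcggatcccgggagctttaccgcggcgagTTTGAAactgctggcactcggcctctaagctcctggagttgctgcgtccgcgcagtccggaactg
Diaph3: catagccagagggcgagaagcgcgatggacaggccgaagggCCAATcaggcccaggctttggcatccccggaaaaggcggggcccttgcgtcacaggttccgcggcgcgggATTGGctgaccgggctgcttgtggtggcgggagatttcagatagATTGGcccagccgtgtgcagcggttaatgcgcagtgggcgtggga
Cenpe: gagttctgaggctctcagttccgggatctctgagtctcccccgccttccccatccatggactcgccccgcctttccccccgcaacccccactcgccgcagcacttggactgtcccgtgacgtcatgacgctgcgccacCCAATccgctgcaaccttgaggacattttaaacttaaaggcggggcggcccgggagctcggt
Mcm6: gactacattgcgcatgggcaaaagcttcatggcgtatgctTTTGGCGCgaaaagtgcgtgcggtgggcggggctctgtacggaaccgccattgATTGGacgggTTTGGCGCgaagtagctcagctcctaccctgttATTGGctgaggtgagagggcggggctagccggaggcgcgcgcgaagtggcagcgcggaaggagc

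The first comparison asks how the members differ between proximal tubule nuclei of Cis9w and CT9w kidneys. Its values are averages in normalised UMIs per nucleus, which the authors scaled to 1 column total, with their log2 fold change and p-value. UMIs recovered from the averages sum to 8557665 for Cis9w and 5123726 for CT9w. At these sizes, 1 UMI is an average of 0.000327 in Cis9w and 0.000546 in CT9w. Ratios of averages computed here have 95% Clopper-Pearson intervals, which cover counting error only and leave out the differences between animals. The descriptions of the replicate 1 samples name this table, and if only those samples entered it, each pool is 1 sample. In pooled nuclei, more cells that express a gene and more RNA per cell cannot be told apart.

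The row of Mki67, the gene of the Ki-67 antigen used to mark dividing cells, differs in its arithmetic from every other row of the proximal tubule table. The gene lies at chr7:135689784-135716361 on the minus strand (GRCm38, GENCODE M21). Its deposited averages, 0.00875 in Cis9w and 0.0017 in CT9w, correspond to 26.77 and 3.11 UMIs, whereas the other 21311 rows are whole UMIs within 0.1 in both columns. It is also the only row out of order in a table sorted by fold change: its deposited log2 fold change of 2.08 stands between neighbours of 2.64 and 2.60. Since each column has the same total, the UMIs that complete the totals could be solved, and they are 30.006 in Cis9w and 1.999 in CT9w, or 30 and 2 whole UMIs. These give a log2 fold change of 2.63, which fits the row's place in the order. The ratio of averages is 8.98 (95% interval 2.28 to 77.6) from the solved UMIs and 5.15 from the deposited averages, so Mki67 was higher in the Cis9w pool by either value. The deposited p of 0.0439 stands in this row as written and could not be recomputed. To the digits printed here, the cluster table gives the same p for Mki67 in its cluster PT-injury/repair against all other nuclei. Whether the p of this row comes from the comparison of Cis9w with CT9w is therefore uncertain. No cause is recorded in the sources used here, and sums of UMIs below use 30 and 2.

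**Figure D1:**
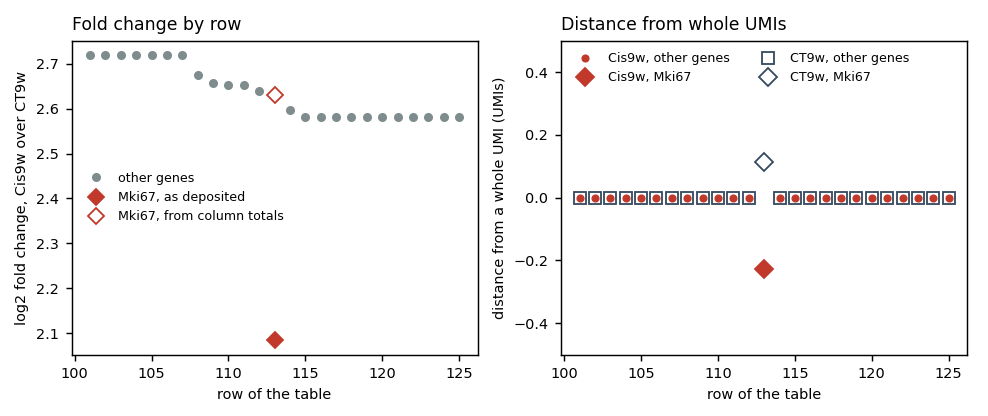
The row of Mki67 in the proximal tubule table and the 24 rows around it, with the deposited log2 fold change (left) and the distance of each average from a whole number of UMIs (right, Cis9w filled and CT9w open). The deposited Mki67 value of 2.08 lies below its neighbours, the value of 2.63 from the column totals lies among them, and only Mki67 is off whole UMIs.

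Of the 39 members, 1 rose and 1 fell in Cis9w where p-values under 0.05 of the authors' deposited table are taken as calls. Mki67 rose (log2 fold change 2.08, the authors' p = 0.0439), and Cenpe, the kinesin that moves chromosomes to the spindle equator, fell (log2 fold change -1.57, the authors' p = 0.0127). The share is 2.56% in each direction, against 0.995% of all 21312 genes called higher and 1.14% called lower. The call of Mki67 rests on the p of uncertain origin described above. Neither call was kept when a p under 0.01 was asked for. By size alone, at or above the median level of all genes (an average of 0.0154), 0 members had a log2 fold change of 1 or more and 1, Cenpe, had -1 or less, against 2.51% and 2.03% of genes at that level. The deposited p is 1 for 30 members, and 25 members lie below that level. For the 14 members at or above it the median of the authors' deposited log2 fold changes was 0.19, against 0.03 for the 10656 genes at that level. Over all 39 members 28 had a positive and 11 a negative log2 fold change (71.8% positive), against 11408 positive and 9890 negative of 21298 gene symbols (53.6% positive).

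Most of the larger positive differences were in mitosis members with few UMIs. Top2a, the topoisomerase that untangles chromosomes before they part, had 24 UMIs in Cis9w and 0 in CT9w. Set against a floor of 3 UMIs over the CT9w pool it was 4.79-fold higher, with a deposited p of 0.0833. That value leaves out the counting error of the 24 UMIs and is not a bound like the intervals below. Diaph3 (chr14:86655367-87141235, minus strand), a formin that nucleates actin, had 52 UMIs in Cis9w and 6 in CT9w (ratio 5.19, 95% interval 2.23 to 14.8, the authors' p = 0.401). Kif11, the kinesin that pushes the spindle poles apart, had 16 UMIs in Cis9w and 2 in CT9w (ratio 4.79, 1.13 to 42.9, the authors' p = 0.822). The intervals of Diaph3 and Kif11 lie above 1, so both exceed counting error, but neither passed the authors' test. Each interval makes no allowance for the number of members looked at. The share of all genes with such an interval between these pools was not computed.

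Knl1, a kinetochore scaffold, had 19 UMIs in Cis9w and 4 in CT9w (ratio 2.84, 0.945 to 11.5). Plk1, a mitotic kinase, had 8 UMIs in Cis9w and 2 in CT9w, and Cenpf, a kinetochore protein, had 13 in Cis9w and 5 in CT9w. Their intervals span 1. Cdk1, the kinase that drives entry into mitosis, had 5 UMIs in Cis9w and 0 in CT9w, and Bub1, a spindle checkpoint kinase, had 2 in Cis9w and 0 in CT9w. For 11 of the 39 members the pools together held fewer than 10 UMIs, so that only large differences could exceed counting error. Among them are Ccna2 (4 UMIs in Cis9w, 1 in CT9w), Aurkb (4 in Cis9w, 1 in CT9w), Bub1b (5 in Cis9w, 2 in CT9w) and Ccnb1 (1 in Cis9w, 5 in CT9w). Ccnb2, a B-type cyclin like Ccnb1, had 16 UMIs in Cis9w and 8 in CT9w (ratio 1.2, 0.484 to 3.23).

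Cenpe (chr3:135212537-135273611, plus strand) ran against the other kinetochore genes named above. It had 26 UMIs in Cis9w and 47 in CT9w, a level 3.02-fold lower (95% interval 1.83 to 5.08). Kif20b, a mitotic kinesin that is not among the 39, fell in the same direction with 89 UMIs in Cis9w and 242 in CT9w (4.54-fold lower, 3.55 to 5.86, the authors' log2 fold change -2.17, p = 1.27e-09). Slc7a13, an amino acid transporter of the S3 segment, had an average of 1.17 in Cis9w and 4.07 in CT9w (3.49-fold lower). In the cluster table Slc7a13 and Kif20b were highest in PT-S3-2 and PT-S3-1, where Kif20b had averages of 0.195 and 0.167. Cenpe led PT-S3-2 (average 0.0198) with 0.0256 in PT-S3-1. Its highest averages were in other clusters, 0.0387 in Immune cells (7 UMIs) and 0.0269 in PT-injury/repair (22 UMIs). The part of S3 nuclei in the falls of Cenpe and Kif20b was not tested. Kif20a, a related kinesin of cytokinesis, had 9 UMIs in each pool (ratio 0.599, 0.211 to 1.7).

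**Figure D2:**
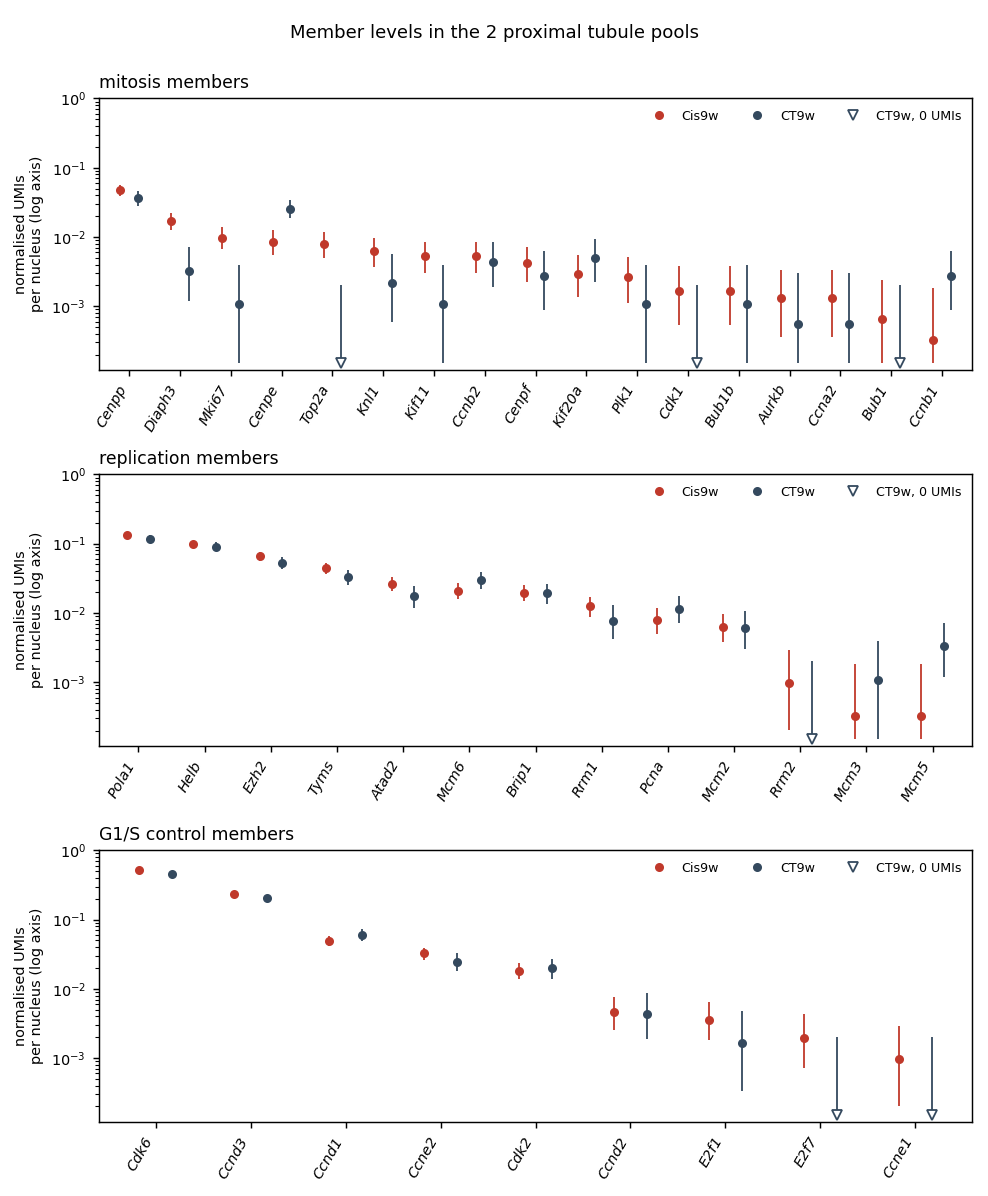
Level of each member in the Cis9w (red, left of each couple) and CT9w (dark, right) proximal tubule pools, in normalised UMIs per nucleus on a log axis, with 95% Poisson intervals for counting error; Mki67 is drawn from its solved UMIs. Open triangles at the foot of the axis are the 6 members with 0 UMIs in CT9w. Diaph3, Mki67 and Top2a stand apart upwards and Cenpe downwards, while most replication and G1/S control members lie close together in both pools.

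Replication members differed less. Their summed UMIs were 1334 in Cis9w and 709 in CT9w, a ratio of 1.13 (95% interval 1.03 to 1.24), and 0 of 13 were called by the authors' p. Pola1, Helb and Ezh2 gave most of these UMIs. Pola1, the catalytic subunit of DNA polymerase alpha, had 407 UMIs in Cis9w and 212 in CT9w (ratio 1.15, 0.971 to 1.36). Helb, a DNA helicase, had 302 in Cis9w and 166 in CT9w (ratio 1.09). Ezh2, the methyltransferase of the Polycomb repressive complex, had 201 in Cis9w and 96 in CT9w (ratio 1.25, 0.978 to 1.62). Tyms, thymidylate synthase, had 134 in Cis9w and 60 in CT9w (ratio 1.34, 0.979 to 1.84). Atad2, a chromatin ATPase, had 80 in Cis9w and 32 in CT9w (ratio 1.5, 0.982 to 2.33). All 5 had more UMIs per nucleus in Cis9w, and none of these 5 intervals excluded 1.

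Of the 4 MCM helicase members, a grouping chosen after their values were seen, 3 had lower levels in Cis9w. Mcm6 had 64 UMIs in Cis9w and 54 in CT9w (ratio 0.71, 0.486 to 1.04). Mcm5 had 1 in Cis9w and 6 in CT9w (ratio 0.0998, 0.00217 to 0.822), an interval below 1 in spite of the few UMIs, although the authors' table does not call it. Mcm3 had 1 in Cis9w and 2 in CT9w, and Mcm2 had 19 in Cis9w and 11 in CT9w (ratio 1.03, 0.468 to 2.41). Together they had 85 UMIs in Cis9w and 73 in CT9w, a summed level 1.43-fold lower in Cis9w (1.03 to 1.98), which rests mainly on Mcm6. Pcna, the sliding clamp of DNA polymerase, had 24 UMIs in Cis9w and 21 in CT9w (ratio 0.684, 0.365 to 1.29). Rrm1 and Rrm2, the subunits of ribonucleotide reductase, had 38 and 3 UMIs in Cis9w and 14 and 0 in CT9w. Brip1, a helicase of DNA repair, had 60 UMIs in Cis9w and 35 in CT9w (ratio 1.03).

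G1/S control members were dominated by Cdk6 and Ccnd3. Cdk6, a kinase partner of D-type cyclins, had averages of 0.523 in Cis9w and 0.45 in CT9w (1601 and 824 UMIs, ratio 1.16, 95% interval 1.07 to 1.27). Ccnd3, cyclin D3, had averages of 0.236 in Cis9w and 0.207 in CT9w (ratio 1.14, 1 to 1.29). Ccnd1, cyclin D1, had 151 UMIs in Cis9w and 110 in CT9w (ratio 0.822, 0.639 to 1.06), and Ccnd2 had 14 in Cis9w and 8 in CT9w. Ccne2, an E-type cyclin that activates CDK2, had 99 in Cis9w and 45 in CT9w (ratio 1.32, 0.917 to 1.92), and Ccne1 had 3 in Cis9w and 0 in CT9w. Cdk2 had 56 in Cis9w and 36 in CT9w. E2f1, an activator of S phase genes, had 11 in Cis9w and 3 in CT9w, and E2f7, a repressor among the E2F factors, had 6 in Cis9w and 0 in CT9w. The deposited p is under 0.05 for 0 of these 9, and the Cdk6 interval covers counting error only.

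Summed by role, mitosis members differed most. They had 378 UMIs in Cis9w and 161 in CT9w, a ratio of summed averages of 1.41 (95% interval 1.17 to 1.70). Cenpp, a centromere protein, gave 144 of the UMIs in Cis9w and 67 of those in CT9w. Without Cenpe and Cenpp the remaining 15 had 208 UMIs in Cis9w and 47 in CT9w, a ratio of 2.65 (1.92 to 3.72), a subset chosen after the values were seen. The G1/S control sum had a ratio of 1.13 (1.06 to 1.21), which is 1.09 (0.988 to 1.21) without Cdk6. Markers of injured proximal tubule moved with these sums: their 10 genes summed to 1.44 in Cis9w and 0.346 in CT9w, with 7 of 10 called higher, and Krt20, Lcn2, Sox9 and Ccl2 were at 0 in CT9w. Macrophage and dendritic markers summed to 0.0997 in Cis9w and 0.128 in CT9w (12 of 12 measured, Flt3 at 0 in CT9w). Csf1r gave 144 of their 305 UMIs in Cis9w and 174 of their 234 in CT9w (ratio 0.496, 0.395 to 0.622). Of the 12, 6 had a positive and 6 a negative log2 fold change, and Ptprc had 48 UMIs in Cis9w and 10 in CT9w. Lymphocyte markers summed to 0.0333 in Cis9w and 0.0278 in CT9w (8 of 12 measured, Cd3g, Cd4, Cd8a and Pax5 at 0 in CT9w), and endothelial markers to 0.266 in Cis9w and 0.176 in CT9w. Proximal tubule markers summed to 39.9 in Cis9w and 41 in CT9w. Markers of several other tubule and glomerular cells were higher in Cis9w too: intercalated cell markers summed to 0.12 in Cis9w and 0.0524 in CT9w (ratio 2.3, 1.83 to 2.90), podocyte markers to 0.118 in Cis9w and 0.0573 in CT9w (ratio 2.06, 1 of 6 called higher), principal cell markers to 0.0928 in Cis9w and 0.0524 in CT9w (ratio 1.77, 1 of 6 called higher), and distal convoluted and connecting tubule markers to 1.86 in Cis9w and 1.29 in CT9w (ratio 1.44). Fibroblast and mesangial markers summed to 0.036 in Cis9w and 0.0295 in CT9w. Lower in Cis9w were urothelial markers (0.00621 in Cis9w and 0.0415 in CT9w, ratio 0.15, 2 of 4 measured called lower), erythroid markers (0.111 in Cis9w and 0.184 in CT9w, 1 of 5 called lower), thin limb markers (0.202 in Cis9w and 0.248 in CT9w) and thick ascending limb markers (3.06 in Cis9w and 3.3 in CT9w). The part of these cells in the member sums was not tested.

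Of 120 other genes of the same phases, 119 were measured in proximal tubule nuclei, and 1 was called, Kif20b, described above. That is 0.84% of the 119, near the background of 1.14% of all genes called lower, and 0 were called higher, against 0.995% of all genes. The other mitosis genes had a summed ratio of 0.82 (0.756 to 0.89), which rests on Kif20b: without it the remaining 45 had 1310 UMIs in Cis9w and 779 in CT9w, a ratio of 1.01 (0.921 to 1.10), a subset chosen after the values were seen. By sign, 31 of these 46 genes had a positive and 15 a negative log2 fold change, with a median of 0.51, against 0.04 for all genes. For the 7 of them at or above the median level of all genes the median was -0.36. The summed ratio of the other replication genes was 1.08 (1.03 to 1.14) and that of the other G1/S genes 1.01 (0.982 to 1.05). Among the CDK inhibitors, 6 of 7 were measured and 1 was called: Cdkn1a, which encodes p21 and is induced by p53, rose with 78 UMIs in Cis9w and 3 in CT9w (ratio 15.6, 5.13 to 77.1, the authors' log2 fold change 3.56, p = 1.44e-05). Cdkn1b, which encodes p27, had averages of 0.0598 in Cis9w and 0.0595 in CT9w. Cdkn1c had 14 UMIs in Cis9w and 4 in CT9w, Cdkn2c had 10 in Cis9w and 8 in CT9w, Cdkn2b had 5 in Cis9w and 0 in CT9w, and Cdkn2d had 4 in Cis9w and 2 in CT9w.

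The second comparison asks in which cell types the members were found. The cluster table pools nuclei into 17 clusters without giving the group of each nucleus, and its averages are scaled to another total, so levels are not set against the first table. Cdk1 had 5 UMIs over both pools of the first table and 3 over the 6 proximal tubule clusters, so the tables do not hold the same set of nuclei. The clusters hold 254460 to 7425098 UMIs each, of which the 39 members make up 5.35 per 10000. Marker genes were set against the authors' cluster names. Markers of the named cell type led in several clusters: 8 of 8 endothelial markers led in EC1 and in EC2, 6 of 6 podocyte markers in Podocyte, 9 of 10 injured proximal tubule markers in PT-injury/repair, and 11 of 12 macrophage and 8 of 12 lymphocyte markers in Immune cells. In Mixed-1, 7 of 8 fibroblast and mesangial markers led, and in mixed-2 none of the marker lists had a leading gene. Of 10 proximal tubule markers, 0 led in PT-injury/repair and 1 to 3 in each of the other 5 clusters with PT in their names. Their summed level in PT-injury/repair was 3.98, below the 5.88 of Immune cells and the 7 of Podocyte, and 16.4 to 42 was found in the other 5 PT clusters. In PT-injury/repair 3 of 5 urothelial and 2 of 6 thin limb markers also led, so its name is used here as the authors gave it. A gene is said to lead a cluster where its deposited log2 fold change over all other nuclei is at least 1 with a p under 0.05. A cluster was built from its own genes, so leading is a description and not a test.

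Leading members were gathered in a few clusters. The shares are a description, since the members were chosen with earlier results of these data known. Of 663 combinations of member and cluster, 30 led, spread over 19 members and 8 clusters. PT-injury/repair held 8 of 39 (20.5%, against 4.61% of all genes), Mixed-1 held 7 (17.9%, against 6.16%), Immune cells held 5 (12.8%, against 4.25%) and EC2 held 5 (12.8%, against 5.84%). EC1 held 2 (5.13%, against 3.39%). PT-S3-2, TAL and Podocyte held 1 each (2.56%, against 3.49%, 5.24% and 1.74%), and the other 9 clusters held 0. In those 9 the share of all genes that led was 2.3% in PT-S1, 1.49% in PT-S2/S3, 0.327% in PT-S3-1, 0.74% in PT-S2, 3.9% in DCT+CNT, 1.43% in CNT, 3.14% in PC, 3.27% in IC-A/IC-B and 0.0899% in mixed-2. The median log2 fold change of the members was 1.09 in PT-injury/repair, where that of all genes was 0.49. It was 1.90 in Immune cells, where that of all genes was 1.13.

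**Figure D3:**
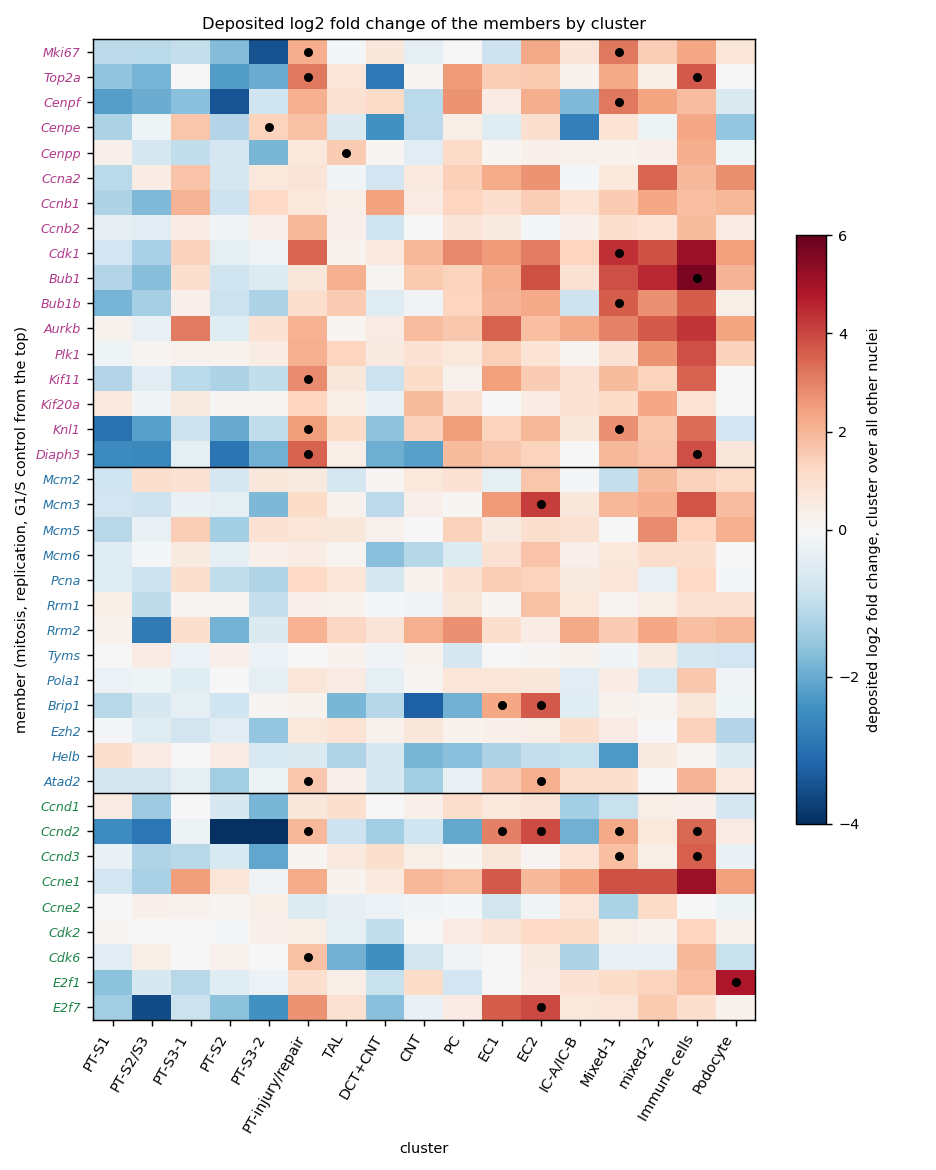
Deposited log2 fold change of each member (down the page, by role) in each of the 17 clusters over all other nuclei, red above 0 and blue below, with a dot where a member leads the cluster. The dots gather in PT-injury/repair (8), Mixed-1 (7), Immune cells (5) and EC2 (5), and the proximal tubule clusters other than PT-injury/repair are mostly blue.

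Among the 6 clusters with PT in their names, mitosis members were highest in PT-injury/repair. Their summed level there was 0.32 (262 UMIs), against 0.0562 over the other 5 proximal tubule clusters (619 UMIs), a ratio of 5.69 (95% interval 4.91 to 6.59). Diaph3 had 65 UMIs in PT-injury/repair, which is 34.4% of its UMIs over all clusters, against 20 in the other 5 together (43.7 times the level, 26.1 to 76.2). Top2a had 33 UMIs against 18 (24.7 times, 13.5 to 46.5), and Knl1 had 20 against 12 (22.4 times, 10.4 to 50.3). Cenpf had 14 against 10 (18.8 times), Kif11 had 14 against 15 (12.6 times), and Mki67 had 18 against 21 (11.5 times, 5.79 to 22.7). Cenpe had 22 against 100 (2.96 times, 1.77 to 4.73). Diaph3, Top2a, Kif11, Knl1 and Mki67 led this cluster in the authors' deposited table, with log2 fold changes of 3.53, 3.15, 2.85, 2.53 and 2.19. Ccnb2 had its highest average there (0.0147, 12 UMIs) but did not lead the cluster. The next, 0.0111 in Immune cells (2 UMIs), was within counting error (ratio 1.33, 0.295 to 12.2).

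Other members differed between the proximal tubule clusters too. E2f7 had 11 UMIs in PT-injury/repair against 3 in the other 5 (49.3 times, 13 to 275), and Ccnd2 had 43 against 24 (24.1 times, 14.3 to 41.5). Cdk6 had an average of 0.862 in PT-injury/repair against 0.297 in the other 5 (2.90 times, 2.67 to 3.15), with 706 UMIs there. Atad2 was 4.43 times as high (3.17 to 6.09), and Pcna 3.26 times (1.76 to 5.69). Atad2, Ccnd2 and Cdk6 led the cluster. In all, 20 of 39 members (51.3%) had an interval of this ratio above 1, against 24.5% of all 24468 genes, and the interval was below 1 for 1 member, against 10.8% of all genes. Whether an interval excludes 1 also depends on a gene's UMIs, and the clusters were built from these genes, so the shares are a description. Of the 20, 10 were mitosis, 5 replication and 5 G1/S control members. The member below 1 was Helb, with an average of 0.0354 in PT-injury/repair against 0.0689 (ratio 0.514, 0.342 to 0.744), and its highest level was in PT-S1 (0.0922). Replication members summed to 1.57 times the level of the other 5 (1.40 to 1.74) and G1/S control members to 2.53 times (2.37 to 2.70).

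The mitosis sum was not particular to PT-injury/repair. It was 0.58 (0.475 to 0.702) in Immune cells, 0.32 (0.282 to 0.361) in PT-injury/repair and 0.279 (0.233 to 0.333) in Mixed-1, and the ratio of PT-injury/repair over Mixed-1 was 1.14 (0.921 to 1.43), within counting error. PC followed at 0.227 and EC2 at 0.192, and the lowest value was 0.0432 in PT-S2. In Immune cells, Bub1 (4 UMIs), Top2a (12 UMIs) and Diaph3 (22 UMIs) led, so these levels rest on few molecules. Bub1 had 0 UMIs in all 6 proximal tubule clusters. In Mixed-1, Mki67 had its highest average of any cluster (0.0425, 19 UMIs), followed by 0.0237 in EC2, a difference within counting error (ratio 1.79, 0.811 to 4.17). Cenpf (15 UMIs), Bub1b (10 UMIs), Knl1 (13 UMIs) and Cdk1 (3 UMIs) also led Mixed-1. Cenpp, with 142 UMIs, led TAL, where its average was 0.098. Cenpp hosts genes on the opposite strand, among them Aspn, Ogn and Omd, and the sources used here do not say whether reads were counted by strand.

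**Figure D4:**
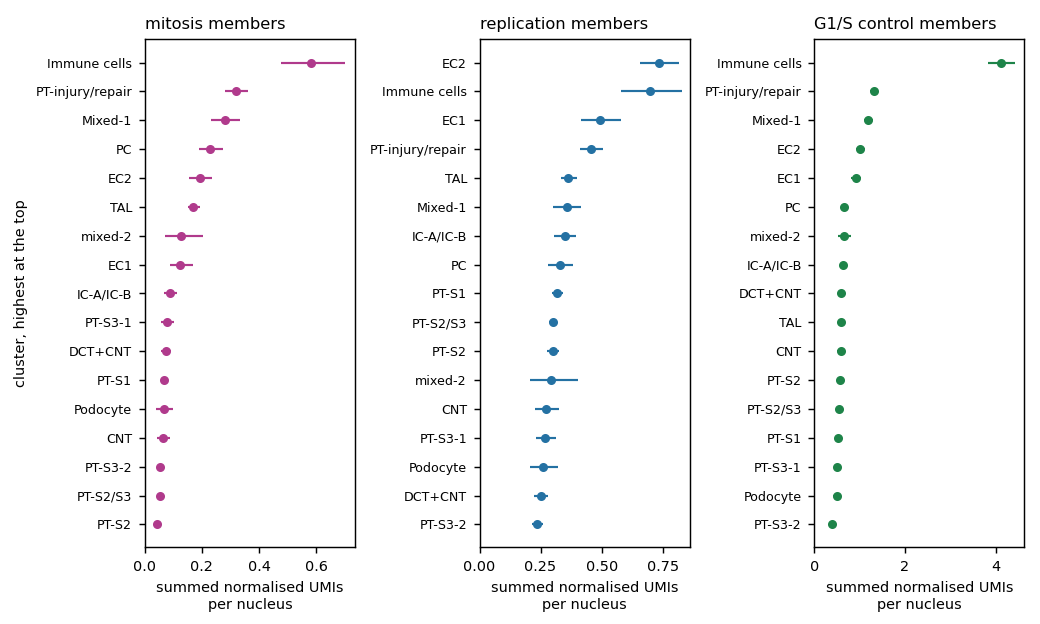
Summed level of the mitosis (left), replication (middle) and G1/S control members (right) in each cluster, in normalised UMIs per nucleus with 95% Poisson intervals, ordered by level within each panel. Immune cells come first for mitosis (0.58) and G1/S control (4.12), EC2 and Immune cells for replication (0.733 and 0.696), and PT-injury/repair is second for mitosis and G1/S control.

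Replication members had their highest sums in EC2 (0.733, 0.657 to 0.815) and Immune cells (0.696, 0.58 to 0.829), which do not differ beyond these intervals. Brip1 had 100 UMIs in EC2, an average of 0.215, and 0.0977 in EC1, and it led both endothelial clusters. EC2 was above EC1 by 2.20 times (1.45 to 3.44). Mcm3, with 10 UMIs, and Atad2, with 43 UMIs, also led EC2. Pola1 was highest in Immune cells (0.287), at 1.84 times PT-injury/repair (1.31 to 2.56). Tyms was spread evenly, with a highest average of 0.0346 in PT-S2/S3 and a median over clusters of 0.0256.

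The D-type cyclins and Cdk6, a kinase partner of theirs, were divided between cell types. Ccnd3 had an average of 2.79 in Immune cells (505 UMIs) and 0.841 in Mixed-1, a ratio of 3.32 (2.90 to 3.80), with a median over clusters of 0.28, and it led both. Ccnd2 led 5 clusters, with 0.175 in EC2, 0.149 in Immune cells, 0.111 in EC1, 0.0671 in Mixed-1 and 0.0525 in PT-injury/repair, and EC2 and Immune cells do not differ beyond counting error (ratio 1.17, 0.748 to 1.88). Ccnd1 led no cluster, and its highest averages were 0.0984 in PC and 0.0904 in TAL (ratio 1.09, 0.774 to 1.51), with the lowest in PT-S3-2 (0.0143). Cdk6 was at 1.07 in Immune cells and 0.862 in PT-injury/repair (ratio 1.24, 1.05 to 1.45), and at 0.0529 in DCT+CNT. In GENCODE M21, 12 of the 39 members overlap a gene on the opposite strand, Ccnd1, Ccnd2, Ccnd3 and Cdk6 among them, and 0 overlap a gene on their own strand.

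E2f1 stood apart in podocytes, which in the adult do not normally divide. Podocyte held 20 of its 56 UMIs, an average of 0.0624, against 0.00553 in Immune cells, the next highest (1 UMI). Its log2 fold change there was 4.87 in the authors' deposited table (p = 3.1e-09), and no other member led this cluster. Mki67 had 2 UMIs and Top2a 1 UMI in Podocyte. The CDK inhibitor Cdkn1c, which encodes p57 and is known from mature podocytes, had 100 of its 197 UMIs there (average 0.312). E2f7 was instead highest in EC2 (0.0302, 14 UMIs) and EC1 (0.0261, 8 UMIs), which do not differ beyond counting error (ratio 1.16, 0.453 to 3.18).

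**Figure D5:**
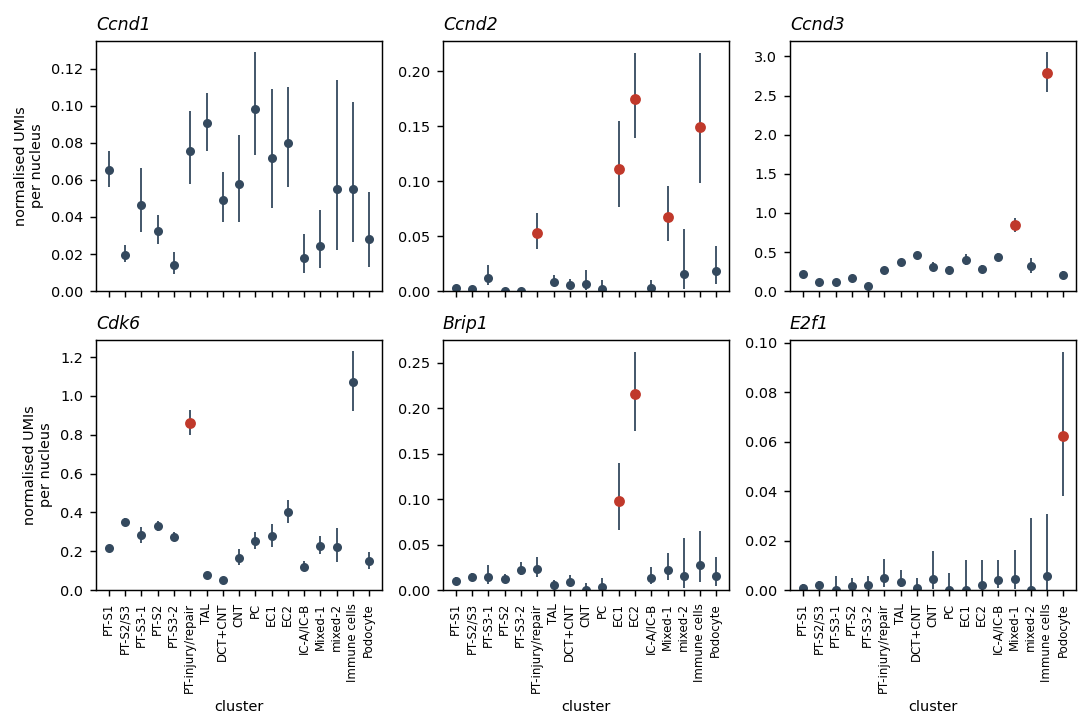
Level of Ccnd1, Ccnd2, Ccnd3, Cdk6, Brip1 and E2f1 in each of the 17 clusters, in normalised UMIs per nucleus with 95% Poisson intervals, red where the gene leads the cluster. Ccnd3 peaks in Immune cells (2.79), Ccnd2 and Brip1 in EC2 (0.175 and 0.215), Cdk6 in Immune cells (1.07) and PT-injury/repair (0.862), and E2f1 in Podocyte (0.0624).

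Other genes of the same phases were also found among the leading genes of PT-injury/repair: 15 of 46 other mitosis genes, 4 of 48 other replication genes, 0 of 26 other G1/S control genes and 1 of 7 CDK inhibitors, against 4.61% of all genes. The 5 with the largest deposited log2 fold change were Cep55 (4.16, 6 UMIs), which acts in abscission, Iqgap3 (3.67, 13 UMIs), a scaffold protein, Fancd2 (3.53, 13 UMIs), which acts in repair of DNA crosslinks, Neil3 (3.29, 12 UMIs), a DNA glycosylase, and Chaf1b (3.29, 12 UMIs), a subunit of a histone chaperone. In the other 5 proximal tubule clusters they had 2, 2, 9, 4 and 18 UMIs. The CDK inhibitor was Cdkn1a, with an average of 0.0415 in PT-injury/repair, where 0 to 0.0127 was found in the other 5. In Immune cells 5 of the 120 led, a share near the 4.25% of all genes. Among the 5 were Exo1 (5.51, 4 UMIs), an exonuclease, Ttk (4.64, 3 UMIs), a spindle checkpoint kinase, Neil3 (4.37, 6 UMIs) and E2f2 (3.07, 9 UMIs), an E2F activator.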

How the data were processed

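RNA of single nuclei from 4 samples, 2 of Cis9w and 2 of CT9w, was measured. The submitters' processing notes name Cell Ranger 5.0.1 and mm10. The sources used here do not give the clustering, the filters on nuclei, the handling of doublets and free RNA, the strand setting or the test behind the p-values. The authors deposited 2 tables that list for every gene, per the file headers, an average (a signal, normalised UMIs per nucleus), its log2 fold change and its p-value. Each column of averages sums to 2797 (proximal tubule nuclei) or to 2008 (clusters). The tables were scaled separately.

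Averages were turned into UMIs as whole multiples of the smallest step (tolerance 0.1 UMI); steps were inverted to size factor sums of 3060 for Cis9w and 1832 for CT9w. From the UMIs, ratios were given 95% Clopper-Pearson and levels 95% Poisson intervals, which cover counting error only. A count of 0 was set against 3 UMIs. The recovery was tested on simulated data. A gene was called where the deposited p was under 0.05. No test across samples was run.

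All members, all CDK inhibitors, other cell cycle genes called in proximal tubule nuclei, and the 5 leading ones of PT-injury/repair and of Immune cells were named, except 1 gene that is not reported here. The members and lists were chosen with earlier results of these data known. Positions are from GENCODE M21 (GRCm38, the assembly of mm10), which matched all 39 members. Python 3.11.15, pandas 2.3.3 and scipy 1.17.1 were used.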

Additional observations from a re-analysis of the deposited data

How the results depend on the processing

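No paired analysis was possible because no column belongs to a single sample, and for the same reason no replicate could be left out and no replicate block fitted. Of 54 results under another setting, 33 kept their value within the interval, sign or 1.5 times the count, 20 moved and 1 reversed, the sum of the other mitosis genes, at 0.82 with and 1.01 without Kif20b, a setting chosen after seeing the data. At a p under 0.01, 0 members were called higher and 0 lower, where 1 of each was called at 0.05. By a log2 fold change past 1 at the median level, 0 were higher and 1 lower, and 0 were higher without Mki67. The mitosis ratio of Cis9w over CT9w was 1.85 without Cenpe, 2.65 without Cenpe and Cenpp, 1.31 without Mki67 and 1.38 with Mki67 as deposited, these settings being chosen after seeing the data. For PT-injury/repair over the other 5 proximal tubule clusters, leaving out the most abundant member of each cluster gave 8.92 for mitosis and 2.03 for G1/S control, and the median of relative levels gave 9.69 for mitosis. For Immune cells over the other 16, those settings gave 7.5 and 10.8 for mitosis and 5.32 and 2.87 for G1/S control, and the median gave 1.6 for replication. Scaling without mitochondrially encoded and the 20 most abundant genes gave 6.21 for G1/S control in Immune cells. The most abundant mitosis member differs between clusters, so the same gene was also left out of every cluster, outside the 54 settings. For PT-injury/repair over the other 5, the mitosis ratio was then 9.09 (7.61 to 10.8) without Cenpp. Without Diaph3 it was 4.42 (3.75 to 5.2), lower than the 5.69 of all mitosis members. At a p under 0.01 the leading combinations were 17, with 5 in PT-injury/repair, 2 in Mixed-1 and 3 in EC2, and asking for a log2 fold change of 2 or more left 5 in PT-injury/repair. The cause was not tested. Depth limits members of every role: 12 of the 39 members had fewer than 50 UMIs over all 17 clusters.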
